A study of Mus musculus with 6 samples.

Results

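The Hox genes of the 4 mouse clusters were examined in embryonic stem cells with and without tamoxifen treatment to delete Dicer. They were found by symbol in the platform's gene list, and a gene was measured where a probe set carried its symbol alone. This gave 37 Hox genes of 19938 measured genes: 10 in the Hoxa cluster and 9 in each of Hoxb, Hoxc and Hoxd. Hoxb8 was not analysed here. Each of the 37 genes had 1 probe set. RNA was measured on 6 Affymetrix arrays from embryonic stem cells with Dicer Fx/Fx alleles, which can be deleted on demand. In 3 samples the cells were left without deletion, and in 3 they were given tamoxifen for 3 days and collected 2 days later, on day 5. Both groups carried the floxed alleles, and the labels name neither the recombinase nor a collection day for the untreated cells. The series held no tamoxifen-treated cells without floxed alleles. Effects of tamoxifen itself, of the recombinase or of time in culture therefore cannot be told apart from those of Dicer loss. Whether replicates came from separate cultures is not labelled, and the p-values therefore reflect sample-to-sample spread that may be purely technical.

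Hox genes encode homeodomain transcription factors that give body segments and limbs their identity along the head-to-tail axis. They lie in clusters in which low paralogue numbers mark the end expressed early and towards the head, and high numbers the end expressed late and towards the tail. In embryonic stem cells the clusters are known to be covered by Polycomb marks and largely silent. Dicer cuts microRNA precursors, and several microRNA genes lie inside the Hox clusters themselves.

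The microRNAs of the clusters are shown because their maturation needs Dicer and because members of the miR-196 family are known to act on Hox transcripts. Mature sequences are from RefSeq (GRCm38.p6), written 5' to 3', with the seed, bases 2 to 8, in capitals.
mmu-miR-10a-5p: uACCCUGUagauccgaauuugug
mmu-miR-10b-5p: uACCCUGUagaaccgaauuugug
mmu-miR-196a-5p: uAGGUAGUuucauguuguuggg
mmu-miR-196b-5p: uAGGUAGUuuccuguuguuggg
mmu-miR-615-3p: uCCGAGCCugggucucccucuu
The miR-10 pair shared 1 seed, as did the miR-196 pair, and miR-615-3p had a seed of its own. Counted from the 5' end, miR-10a-5p and miR-10b-5p differed by U12A, and miR-196a-5p and miR-196b-5p by A12C. In RefSeq order Mir10a lay between Hoxb5 and Hoxb4, within the span of Hoxb3, and Mir10b lay within the spans of Hoxd3 and Hoxd4. Mir196a-1 lay between Hoxb13 and Hoxb9, Mir196a-2 between Hoxc10 and Hoxc9, and Mir196b between Hoxa9 and Hoxa10. Mir615 lay inside Hoxc5.

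The values were the authors' log2 signals after the robust multi-array average (RMA), which includes a step to equalise the arrays and carries no detection call. The array medians over all deposited probe sets still differed. They were 7.209, 7.187 and 7.231 in untreated and 7.235, 7.238 and 7.256 in tamoxifen replicates 1 to 3. Every tamoxifen median was thus above every untreated one, while the medians over the measured genes overlapped. Dicer1, the deleted gene, read 11.43, 11.36 and 11.48 in untreated and 9.53, 9.48 and 9.69 in tamoxifen replicates 1, 2 and 3. On the log2 scale it fell by 1.85 ± 0.07 (SE), with a limma adjusted p of 3.61e-05. The direction matched the labels. All 10 embryonic stem cell markers lay far above the dim range used below, at mean levels of 12.61 to 12.70 in untreated and 12.55 to 12.63 in tamoxifen arrays, and limma called 0 of 10 (1 higher and 3 lower had an unadjusted p below 0.05). With the replicate number as a block, Utf1 and Tdgf1 were called lower (adjusted p = 0.0193 and 0.0326), by changes of -0.26 and -0.24. Of all genes, 24.5% had an unadjusted p below 0.05 and the block called 17.4%, in either direction. At a limma adjusted p under 0.05, 756 of all genes were called higher and 796 lower. After centring each array on its median these counts were 579 and 1055.

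In untreated cells the signals of most Hox genes lay in the upper part of the range of a set of mostly silent genes. RMA gives no call for absence, so the 1027 olfactory receptor genes on the array served as a set of mostly silent genes. Their untreated signals had a median of 4.79, and 95% of them lay below 6.39. Of the 37 Hox genes, 23 (62.2%) lay below that value, against 30.1% of all genes. The share was 7 of 10 in Hoxa, 3 of 9 in Hoxb, 7 of 9 in Hoxc and 6 of 9 in Hoxd. The Hox signals ran from 5.08 to 7.69 with a median of 6.10, whereas the median over all genes was 7.80. Every Hox gene thus lay above the olfactory receptor median, and 14 lay above the 95% line. Signals of different probe sets depend on their probes as well as on RNA, so their order is not an order of transcript amounts. The dimmest ES marker, Zfp42, read 9.97 in untreated cells, above every Hox gene.

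**Figure D1:**
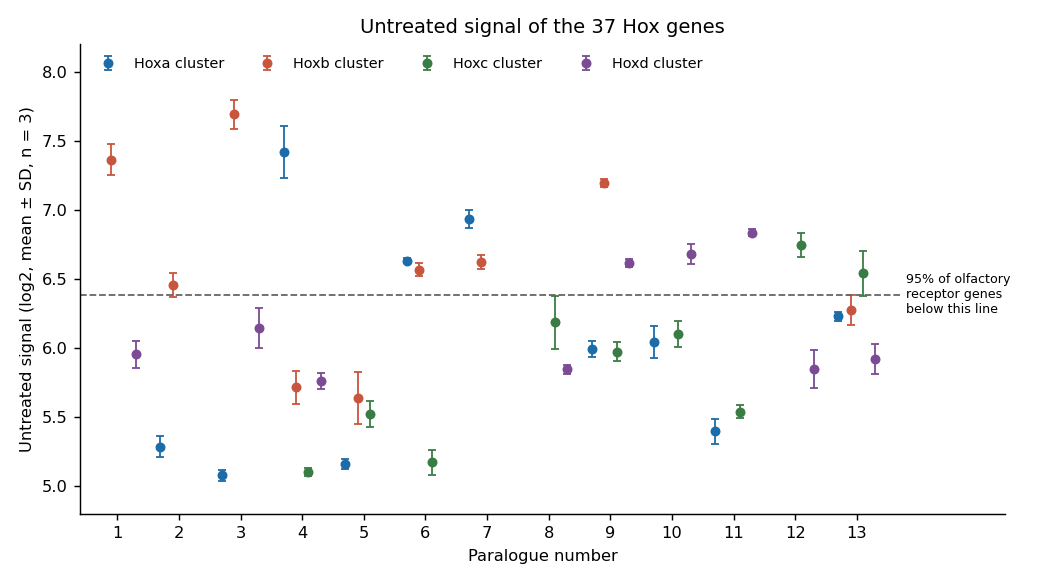
Untreated log2 signal of each of the 37 Hox genes (mean ± SD, n = 3 arrays) by paralogue number, coloured by cluster; the dashed line at 6.39 is the level below which 95% of olfactory receptor genes lay. The 14 genes above the line are spread over low, middle and high paralogue numbers, and 6 of them belong to Hoxb.

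The brightest probe set of each cluster was that of Hoxa4, Hoxb3, Hoxc12 or Hoxd11. Hoxa4, a gene of the neck region, read 7.51, 7.54 and 7.20 in untreated and 7.65, 7.46 and 7.49 in tamoxifen replicates 1 to 3. Hoxb3, which acts in the hindbrain, read 7.72, 7.78 and 7.58 untreated and 7.74, 7.88 and 7.69 after tamoxifen. Both groups of arrays overlapped for each of these genes, with untreated replicate 3 the lowest. Hoxc12 read 6.65, 6.82 and 6.77 untreated and 7.04, 6.87 and 6.75 after tamoxifen. Hoxd11, a gene of the forearm, read 6.83, 6.81 and 6.87 untreated and 6.77, 6.94 and 7.18 after tamoxifen, its highest value in tamoxifen replicate 3. These groups overlapped too. The changes of the 4 genes were 0.12 ± 0.10, 0.08 ± 0.08, 0.14 ± 0.09 and 0.13 ± 0.10 (log2, SE), with adjusted p-values of 0.507, 0.592, 0.361 and 0.472. Each depended on single arrays. The lowest values were 0.01 for Hoxa4 and 0.02 for Hoxb3 without untreated replicate 3, 0.06 for Hoxc12 without tamoxifen replicate 1, and 0.02 for Hoxd11 without tamoxifen replicate 3. Without tamoxifen replicate 1, Hoxd11 was 0.22 and Hoxa4 0.06. Hoxb3 was also 0.02 without tamoxifen replicate 2, and 0.12 without untreated replicate 2 or tamoxifen replicate 3.

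After tamoxifen no Hox gene was called at a limma adjusted p under 0.05, in either direction. Of all genes 7.78% were called, and of the 7465 other genes with untreated signals in the Hox span 3.63%. At an unadjusted p under 0.05 there were 4 of the 37, all higher (Hoxb1, Hoxb13, Hoxc8 and Hoxd13). That was 10.8%, against 24.5% of all genes and 16.5% of those other genes of like signal. The smallest adjusted p among the members was 0.0981. The labels state no pairing, and the replicate numbers were taken to pair the arrays because of correlations in these same values. With the replicate number as a block, Hoxd13 and Hoxb13 were called higher (adjusted p = 0.0232 and 0.0418), beside 7.87% of all genes called higher in that fit. After cyclic loess normalisation together with the block, Hoxd13 was called (0.0488) and Hoxb13 was not.

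The arrays bounded the changes closely on the scale of these signals. The median standard error was 0.07 for the Hox genes and 0.07 over all genes. No 95% interval reached below -0.37 (Hoxc13) or above 0.50 (Hoxc8), so the widest of them allowed a 1.41-fold change. These are bounds on the signal. RMA compresses changes of dim probe sets, and for genes in the range of silent ones a larger change of the transcript itself may not be visible.

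**Figure D2:**
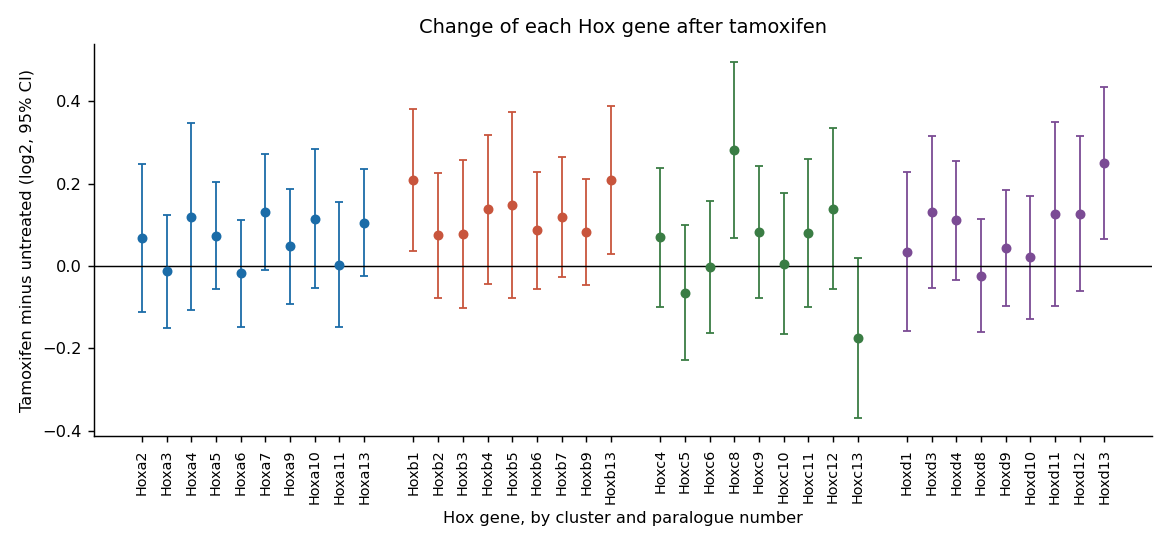
Change of each Hox gene (tamoxifen minus untreated, log2) with its 95% confidence interval from limma, ordered by cluster and paralogue number. The points lie between -0.17 for Hoxc13 and 0.28 for Hoxc8, and no interval leaves the span from -0.37 to 0.50.

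The estimates themselves leaned upwards, and so did those of other genes of like signal. Of the 37 Hox genes, 31 had a change above 0, with a median of 0.08 against 0.01 over all genes. Among the 7465 other genes whose untreated signal lay in the span of the Hox signals, 69.7% had a change above 0 and the median was 0.05. The Hox count above 0 was 28 after median centring, 27 after renewed quantile normalisation and 25 after cyclic loess, where the Hox median was 0.04 and that of the other genes of like signal 0.01. Array by array, the median Hox signal was 6.19, 6.07 and 6.0 in untreated replicates 1, 2 and 3, and 6.23, 6.20 and 6.21 in the tamoxifen arrays. The genes of like signal gave 6.41, 6.37 and 6.34, then 6.41, 6.46 and 6.42. In both sets the untreated arrays stood in the same order, and the paired difference was near 0 for number 1. For Hox it was 0.00, 0.11 and 0.13 in pairs 1, 2 and 3, with 19, 32 and 29 of the 37 genes higher.

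**Figure D3:**
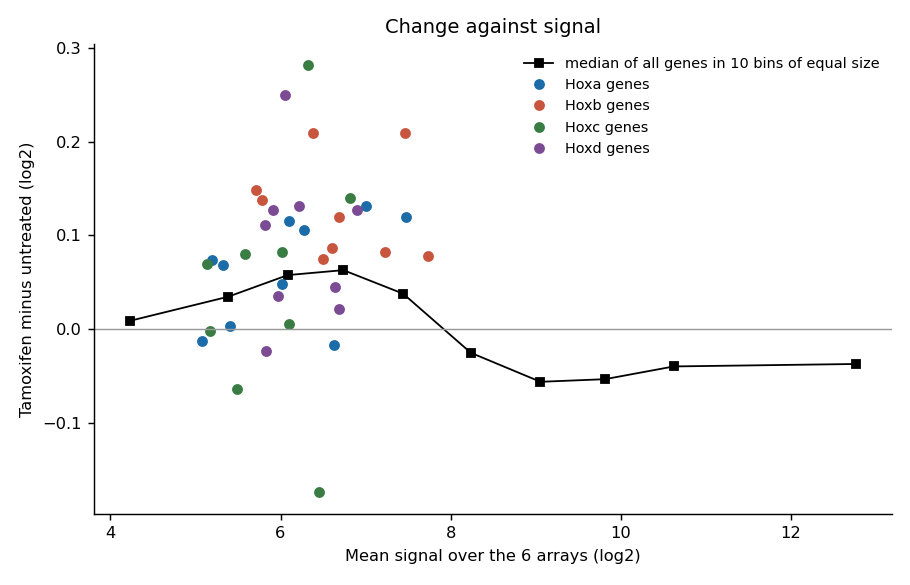
Change of each Hox gene (points, coloured by cluster) against its mean signal over the 6 arrays, with the median change of all genes in 10 equal bins of signal (black squares); both axes are log2. The line is above 0 at the signals where the Hox genes lie, reaching 0.06, and below 0 for brighter genes.

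Complete separation of the groups was seen for 10 Hox genes, all with tamoxifen higher (14.5% of all genes), and for 0 with tamoxifen lower (14.8%). These were Hoxa5, Hoxa7, Hoxa13, Hoxb1, Hoxb6, Hoxb7, Hoxb9, Hoxb13, Hoxc8 and Hoxd13. The 10 make up 27% of the members, against 16.6% of the other genes of like signal. Under other scalings the count fell to 5 after median centring, 3 after renewed quantile normalisation and 5 after cyclic loess, with 1, 2 and 1 lower, so this too moved with the scaling. The higher ones were 13.5%, 8.1% and 13.5% of the members, against 9.7%, 12.4% and 13.4% of all genes. Among the other genes of like signal the shares were 9.5%, 8.9% and 10.3%. Hoxb1 and Hoxc8 were separated on the deposited values and under each of these scalings.

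By cluster, the median change was 0.07 in Hoxa, 0.12 in Hoxb, 0.07 in Hoxc and 0.11 in Hoxd. These medians moved with single arrays, Hoxa to 0.04 and Hoxd to 0.05 without untreated replicate 3, Hoxc to 0.02 and 0.04 without tamoxifen replicates 2 and 3, and Hoxd to 0.05 without tamoxifen replicate 3. All 9 Hoxb genes had estimates above 0, from 0.07 for Hoxb2 to 0.21 for Hoxb1, and 5 of the 9 had groups that did not overlap (14.5% of all genes). That count was 2 after median centring, 2 after renewed quantile normalisation and 1 after cyclic loess. The shares of all genes were then 9.7%, 12.4% and 13.4%. In Hoxa 8 of 10 estimates were above 0, in Hoxc 6 of 9 and in Hoxd 8 of 9. After cyclic loess the cluster medians were 0.04, 0.07, 0.03 and 0.07, and 6, 9, 5 and 5 estimates were above 0. All 9 Hoxb estimates stayed above 0 under each of the 3 rescalings. By position, the median change was 0.07 for paralogues 1 to 3 (7 genes), 0.10 for 4 to 8 (14 genes) and 0.08 for 9 to 13 (16 genes). Across the 37 genes Spearman's rho with paralogue number was 0.09 for the change and 0.13 for the untreated signal. These correlations are over genes of the same 6 arrays and are given as a description.

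Among the genes of the head end, Hoxb1, which specifies a segment of the hindbrain and answers to retinoic acid, had the largest change. It read 7.45, 7.24 and 7.40 in untreated and 7.50, 7.65 and 7.58 in tamoxifen replicates 1 to 3. Every tamoxifen array was above every untreated array, by a narrow margin. The change was 0.21 ± 0.08 on the log2 scale, or 1.16-fold, with an adjusted p of 0.132 (0.0994 with the block). The paired differences were 0.04, 0.41 and 0.18. Hoxd1, Hoxa2, Hoxb2, Hoxa3 and Hoxd3, the other members of paralogue groups 1 to 3 beside Hoxb3, had changes from -0.01 to 0.13 with overlapping groups.

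In the middle of the clusters, Hoxc8, a gene of the thoracic region, had the largest estimate of all 37. It read 6.35, 5.97 and 6.24 untreated and 6.46, 6.51 and 6.43 after tamoxifen, with untreated replicate 2 well below the others. The change was 0.28 ± 0.09, or 1.22-fold (adjusted p = 0.107; 0.0549 with the block). It was 0.17 without untreated replicate 2. Hoxa7, another trunk gene, read 6.98, 6.96 and 6.86 untreated and 7.10, 7.07 and 7.04 after tamoxifen, a change of 0.13 ± 0.06 (adjusted p = 0.233). Hoxd8 read 5.88, 5.81 and 5.84 untreated and 5.87, 5.84 and 5.76 after tamoxifen, a change of -0.02 ± 0.06 (adjusted p = 0.849). Hoxc8, Hoxa7 and Hoxd8 are among the Hox genes described as miR-196 targets, as is Hoxb8, and are not a full list of them. They were grouped here after their values were seen. In Hoxc8 and Hoxa7 the tamoxifen arrays were all higher, as in 14.5% of all genes, and after renewed quantile normalisation the Hoxa7 groups overlapped too. None of the 3 was called. Hoxa6, the lowest estimate of the Hoxa cluster, read 6.64, 6.61 and 6.65 untreated and 6.65, 6.60 and 6.59 after tamoxifen (-0.02 ± 0.06, adjusted p = 0.89). The other middle members, Hoxa5, Hoxb4 to Hoxb7, Hoxc4 to Hoxc6 and Hoxd4, lay between -0.06 and 0.15.

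At the tail end, 3 of the 4 genes of paralogue group 13 had estimates above 0 and 1 below, and whether they differ was not tested. Hoxd13, needed for digits, read 6.05, 5.84 and 5.88 in untreated and 6.28, 6.16 and 6.07 in tamoxifen replicates 1 to 3. Its change was 0.25 ± 0.08, or 1.19-fold (adjusted p = 0.0981, or 0.0232 with the block), and it was higher in 3 of 3 pairs, by 0.24, 0.32 and 0.19. Hoxb13, a gene of the tail and prostate, read 6.23, 6.40 and 6.19 untreated and 6.40, 6.58 and 6.46 after tamoxifen. Its change was 0.21 ± 0.08 (adjusted p = 0.142, or 0.0418 with the block), with paired differences of 0.17, 0.19 and 0.27. In both genes the lowest tamoxifen array was only just above the highest untreated array.

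Hoxa13, which acts in digits and the genital tubercle, read 6.26, 6.19 and 6.23 untreated and 6.34, 6.33 and 6.33 after tamoxifen, a change of 0.11 ± 0.06 (adjusted p = 0.295). Hoxc13, a gene of hair and nails, read 6.38, 6.71 and 6.53 untreated and 6.38, 6.39 and 6.32 after tamoxifen. Its change of -0.17 ± 0.09 (adjusted p = 0.254) was the largest below 0 among the members. It was -0.09 without untreated replicate 2. The remaining posterior members, paralogue numbers 9 to 12 beside Hoxc12 and Hoxd11, had changes from 0.00 for Hoxa11 to 0.13 for Hoxd12.

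**Figure D4:**
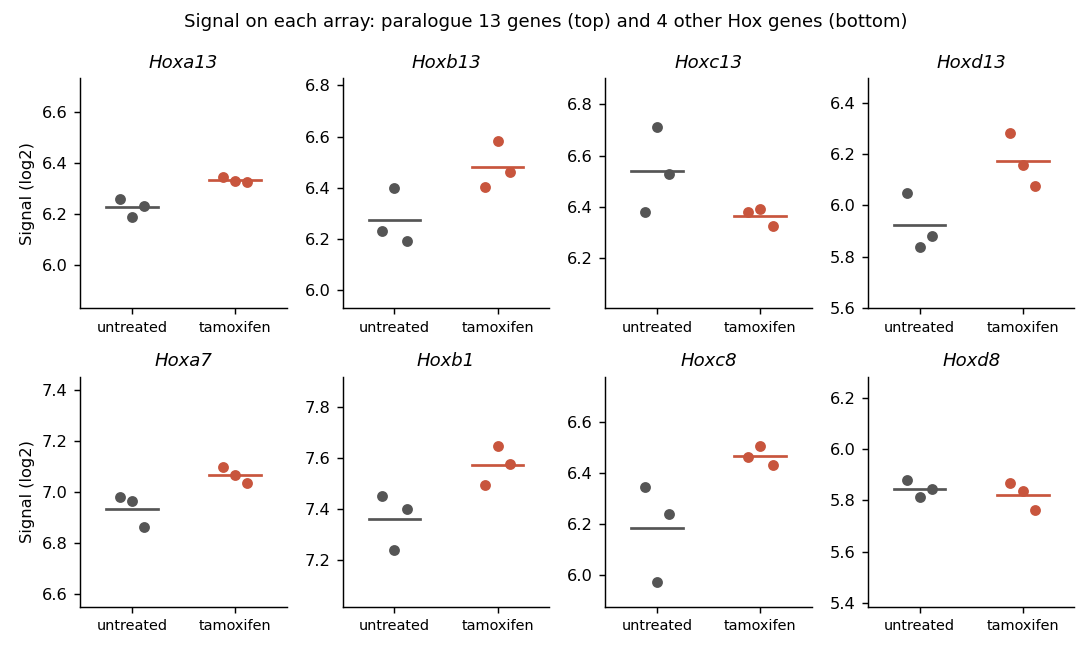
Log2 signal on each array for the 4 genes of paralogue group 13 (top) and for Hoxa7, Hoxb1, Hoxc8 and Hoxd8 (bottom); points are the 3 arrays of a group in the order of their replicate numbers, lines are group means, and every panel spans the same range of log2 units. The tamoxifen points lie above the untreated ones for Hoxa13, Hoxb13, Hoxd13, Hoxa7, Hoxb1 and Hoxc8, and not for Hoxc13 or Hoxd8.

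Upstream sequences of Hoxa13 and Hoxd13 are shown because both genes had separated groups and dim signals, and because CpG-rich promoters of this kind are where Polycomb complexes are known to sit. Each is the 250 bases before the gene's start, from RefSeq (GRCm38.p6), 5' to 3' on the gene's strand, with CG dinucleotides in capitals. The region of Hoxa13 is chr6:52260881-52261130 (minus strand) and that of Hoxd13 is chr2:74667975-74668224 (plus strand).
Hoxa13: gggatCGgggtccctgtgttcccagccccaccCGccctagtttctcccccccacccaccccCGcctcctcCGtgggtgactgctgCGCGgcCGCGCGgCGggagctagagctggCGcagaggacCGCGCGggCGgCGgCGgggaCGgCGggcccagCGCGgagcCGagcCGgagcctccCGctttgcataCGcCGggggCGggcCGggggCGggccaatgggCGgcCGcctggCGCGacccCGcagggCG
Hoxd13: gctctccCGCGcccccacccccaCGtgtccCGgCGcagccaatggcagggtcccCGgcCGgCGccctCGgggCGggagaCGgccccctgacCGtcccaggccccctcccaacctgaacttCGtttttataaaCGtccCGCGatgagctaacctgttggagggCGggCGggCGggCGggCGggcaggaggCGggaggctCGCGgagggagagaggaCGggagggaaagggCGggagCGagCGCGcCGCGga
These held 35 and 31 CG dinucleotides. In the full 300-base windows, which add 50 bases after the start, Hoxa13 had 45 and Hoxd13 had 37, more than 98.1% and 94.4% of all 32851 windows. RefSeq windows were at hand for 21 members (23 windows, since some genes had several starts). Their median was 15 CG, the same as the 15 over windows of all measured genes, and ran from 4 to 45. TATAAA, searched on both strands, was found in 3 of the 23 windows (13%), those of Hoxd13, Hoxd4 and 1 start of Hoxa10, and in 13.6% of all windows. These matches describe letters only.

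Noncoding transcripts of the clusters were also mostly dim, and none was called. Of 21 listed, 10 were measured, 9 of them below the 95% line of the olfactory receptor genes, and limma called 0 (1 lower had an unadjusted p below 0.05). Of all genes, 24.5% had such a p in either direction. Mir10b, the smallest p of the list, read 4.21, 4.23 and 4.16 untreated and 4.09, 4.07 and 4.03 after tamoxifen, a change of -0.14 ± 0.06 (adjusted p = 0.193). Its groups did not overlap. Mir10a, Mir196a-1, Mir196a-2, Mir196b and Mir615 had changes of -0.03, 0.11, -0.08, -0.01 and 0.05 with overlapping groups. Mir615 was the exception above the line of the olfactory receptor genes, with an untreated mean of 8.40, higher than that of any Hox gene. These probe sets read gene or precursor sequence and cannot measure the mature microRNAs. Hoxaas2, a transcript of the Hoxa cluster, had a change of 0.09 ± 0.06 (adjusted p = 0.396).

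Among the partners of Hox proteins, 2 genes rose. Hox factors bind DNA together with the TALE homeodomain proteins of the Pbx, Meis and Pknox families, and 8 of 9 listed were measured. Limma called Pknox2 and Meis2 higher and 0 lower, beside 7.78% of all genes called; the other 6 had changes from -0.21 to 0.17, 3 of them below 0. Pknox2 read 6.85, 7.12 and 6.89 in untreated and 7.73, 8.17 and 8.04 in tamoxifen replicates 1 to 3. The groups were well apart, with tamoxifen replicate 1 the lowest of its group. It rose 2.04-fold, a log2 change of 1.03 ± 0.12 (adjusted p = 0.0039), and every fit without 1 array called it. Meis2 read 6.09, 6.37 and 6.27 untreated and 6.72, 7.21 and 7.36 after tamoxifen, again with tamoxifen replicate 1 the lowest. It rose 1.81-fold, by 0.85 ± 0.15 (adjusted p = 0.0143); without tamoxifen replicate 2 the adjusted p was 0.0653, and 0.0735 when all probe sets were tested. Meis1 had a change of 0.17 ± 0.06 (adjusted p = 0.102) and Pknox1 of -0.21 ± 0.06 (0.0728, or 0.0399 with the block). Pbx2, Pbx3, Pbx4 and Meis3 were not called.

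None of the 8 ParaHox and Evx genes, the nearest relatives of the Hox genes, was called by limma. Against 24.5% of all genes in either direction, 1 was higher at an unadjusted p under 0.05. That was Cdx2, an activator of the trunk and tail Hox genes, with a change of 0.14 ± 0.06 (adjusted p = 0.176), followed by Gsx1 at 0.12 ± 0.07 (0.283). Of 18 measured genes of retinoic acid signalling, which opens the clusters in differentiating cells, limma called 1 higher and 1 lower. That was 11.1% of the list, against 7.78% of all genes. Rarb, a receptor that is itself induced by retinoic acid, read 6.82, 6.87 and 6.95 untreated and 7.28, 7.21 and 7.47 after tamoxifen. It rose by 0.43 ± 0.08 (adjusted p = 0.0173), but was not called without untreated replicate 2 (0.0656), without tamoxifen replicate 3 (0.0551) or over all probe sets (0.0709). Crabp1, which binds retinoic acid in the cytoplasm, read 10.97, 10.38 and 10.47 untreated and 10.22, 9.68 and 9.78 after tamoxifen. It fell by 0.71 ± 0.18 (adjusted p = 0.0437), with replicate 1 the highest in each group. That call was kept in 1 of 6 fits without 1 array, the one without tamoxifen replicate 1, and lost after cyclic loess (0.0536). The other 5 fits gave adjusted p-values from 0.067 to 0.155, and with the block it was 0.000358. The block also called Rdh10 of this list higher (adjusted p = 0.0477) and Stra8 lower (0.0205), beside 17.4% of all genes in either direction. Cyp26a1, an enzyme that degrades retinoic acid and a sensitive target of it, had a change of 0.11 ± 0.09 (adjusted p = 0.53).

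Polycomb and Trithorax genes, which hold Hox clusters silent or active, were not called by limma in any of the 32 measured of 34 listed. At an unadjusted p below 0.05 there were 4 higher and 1 lower. That was 15.6% of the list, against 24.5% of all genes, and the block called 17.4% of all genes in either direction. With the block Bmi1 and Kmt2a, the gene of the methyltransferase MLL1, were called higher and Pcgf5 lower, the adjusted p-values being 0.0205, 0.0238 and 0.0261. The changes of these 3 were 0.42 ± 0.12, 0.36 ± 0.12 and -0.34 ± 0.13. Phc3 had a change of 0.25 ± 0.08 (adjusted p = 0.0866). Ezh2 and Suz12, core subunits of the complex that marks the clusters, had changes of -0.01 ± 0.06 and -0.01 ± 0.07.

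Just outside the clusters, 2 neighbours of Hoxb13 rose. The 5 protein-coding genes on each side of each cluster in RefSeq order were taken after earlier values had been seen; 37 of 40 were measured, with a median untreated signal of 9.75 and a median change of -0.02. Of these limma called 4 higher and 0 lower (10.8%, against 7.78% of all genes). With the block 5 were called higher and 3 lower, adding Skap2 (adjusted p = 0.0247) above and Snx11, Cbx1 and Copz2 (0.0352, 0.024 and 0.0359) below, beside 17.4% of all genes called in either direction. Ttll6, a tubulin polyglutamylase and the next coding gene beyond Hoxb13, read 7.92, 8.10 and 8.09 untreated and 8.77, 9.18 and 9.35 after tamoxifen. It rose 2.09-fold, a log2 change of 1.07 ± 0.13 (adjusted p = 0.00499), and every fit without 1 array called it. Its neighbour Calcoco2, an autophagy receptor, read 7.78, 7.45 and 7.84 untreated and 8.40, 8.71 and 8.91 after tamoxifen. It rose by 0.98 ± 0.14 (adjusted p = 0.00754, or 0.0509 over all probe sets), and its other probe set changed by 1.32. In both genes tamoxifen replicate 1 was the lowest and replicate 3 the highest of the tamoxifen arrays. Hoxb13 itself had a change of 0.21, called with the block (adjusted p = 0.0418) and not without it (0.142). The spans of Ttll6 and Calcoco2 overlap in RefSeq. Jazf1, on the Hoxa13 side of Hoxa, rose by 0.38 ± 0.09 (adjusted p = 0.0361), and Atf7, on the Hoxc13 side of Hoxc, by 0.31 ± 0.07 (0.0286). Each was kept in 1 of 6 fits without 1 array: Jazf1 without untreated replicate 1 and Atf7 without untreated replicate 3. In the other fits without 1 array the adjusted p-values ran up to 0.12 and 0.0997. With its 2 probe sets averaged, Atf7 changed by 0.24 and was not called (limma adjusted p = 0.114).

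**Figure D5:**
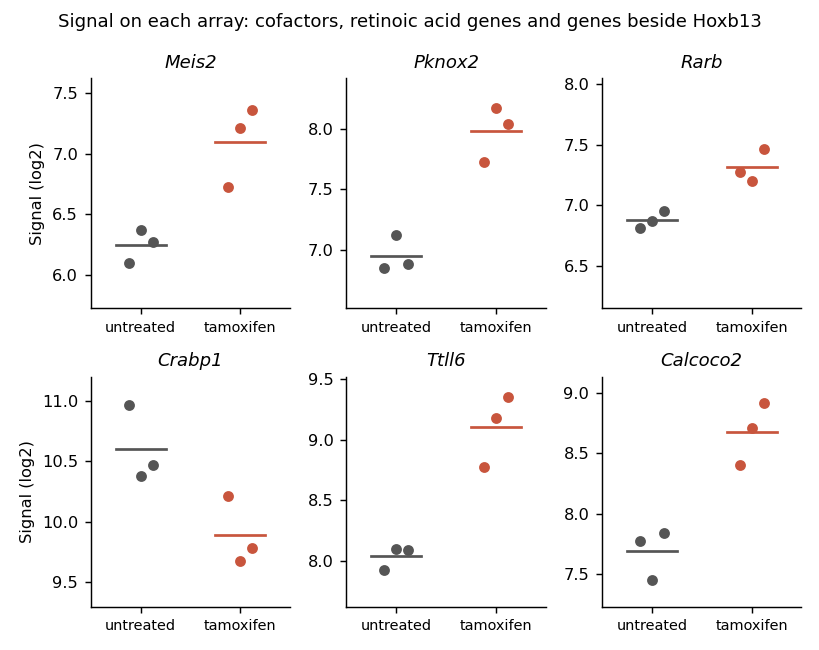
Log2 signal on each array for the called Hox cofactors Meis2 and Pknox2, the called retinoic acid genes Rarb and Crabp1, and Ttll6 and Calcoco2 beside Hoxb13; points are the 3 arrays of a group in the order of their replicate numbers, lines are group means, and every panel spans the same range of log2 units. No panel has overlapping groups, and Crabp1 is the one gene that is lower after tamoxifen.

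Markers of cell types that express Hox genes were set beside these values, since in bulk RNA fewer cells of a type and less RNA per cell cannot be told apart. Over all genes, 24.5% had an unadjusted p under 0.05 and limma called 7.78%, or 17.4% with the block, in either direction. The block called 7.87% of all genes higher. Of 18 measured markers of feeder fibroblasts, limma called 0 (2 higher and 1 lower had an unadjusted p below 0.05). In all, 15 had changes above 0, with a median of 0.08; 7 lay below the line of the olfactory receptor genes. Their mean level was 6.48 to 6.64 in untreated and 6.64 to 6.67 in tamoxifen arrays. Lum, Dcn and Postn were among the 7 below that line, at 4.40, 5.69 and 5.12 on average in untreated cells. The untreated signals of the list ran from 4.40 to 8.32 (Thy1) with a median of 6.82, and Col1a1 read 7.77. Pdgfra and Col6a3 had changes of 0.36 ± 0.09 (adjusted p = 0.0518) and 0.24 ± 0.07 (0.0807), and with the block both were called higher (0.018 and 0.0319). The block also called Acta2 higher (0.32 ± 0.18, adjusted p = 0.0346) and Thy1 lower (-0.32 ± 0.11, 0.00725). Neural markers had a mean level of 7.70 to 7.80 in untreated and 7.86 to 8.07 in tamoxifen arrays, with 9 of 11 above 0 and 5 higher at an unadjusted p under 0.05. With the block 4 were called higher, Neurod1 (adjusted p = 0.000594), Tubb3 (0.52 ± 0.19, 0.00204), Sox1 (0.29 ± 0.09, 0.0211) and Pax7 (0.23 ± 0.07, 0.0415). Neurod1, a neuronal factor, rose by 0.91 ± 0.18 (adjusted p = 0.0194, kept in 3 of 6 fits without 1 array and lost without untreated replicate 3 and tamoxifen replicates 2 and 3, at 0.0597, 0.0653 and 0.0729). Of 9 mesoderm markers 1 was called, Kdr at 0.26 ± 0.07 (adjusted p = 0.0468, not called in any of the 6 fits without 1 array, which gave 0.0647 to 0.172), while 3 higher and 1 lower had an unadjusted p under 0.05. With the block Kdr, Foxf1 (0.22 ± 0.06) and Msgn1 (0.22 ± 0.06) were called higher, at adjusted p-values of 0.0202, 0.0388 and 0.0442. Eomes, with the largest change of that list (-0.57 ± 0.23), was called lower with the block (0.00745) and not without it (0.174). Of 10 endoderm markers limma called 0 (1 lower had an unadjusted p below 0.05). That was Sox7 (-0.28 ± 0.08, adjusted p = 0.0603), called lower with the block (0.041), after median centring (0.0456), after cyclic loess (0.0456) and without the dimmest 40% of genes (0.048). The neural levels did not overlap between the groups, and the fibroblast and mesoderm levels did. Each of these lists had most estimates above 0 (7 of 9 for mesoderm), and the endoderm list had 5 of 10. Most Hox genes were also above 0, as were 69.7% of the other genes of like signal. The part of these cell types in the Hox values was not tested.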

How the data were processed

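RNA from 3 untreated and 3 tamoxifen-treated samples was read on 6 arrays. The authors deposited log2 values. The submitters' processing notes name RMA and Affymetrix Expression Console 1.2, and the scale follows from the range of the values; a genome build is not given in the sources used here. RMA corrects background, includes a step to equalise array distributions and summarises probe sets, so a change shared by most transcripts cannot be read from these values. The medians of the deposited arrays were not fully equal. Of 35556 deposited probe sets, 21789 had 1 gene symbol. The brightest probe set of a gene was kept (19938 genes). The 2 groups were compared by limma's lmFit and eBayes (version 3.58.1, under R 4.3.3; two-sided, with dim genes kept), and p-values were Benjamini-Hochberg adjusted over all genes, with calls under 0.05. Errors of changes are limma's SE, and 95% intervals use its moderated degrees of freedom. The fit was tested on simulated data. The number of arrays limits the precision.

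For each replicate number, the untreated and tamoxifen arrays' deviations from their means correlated over genes (0.356, 0.345 and 0.389). The replicate numbers were therefore taken to pair the arrays, and a block fit was run beside the main one. The labels do not state this pairing, and it was drawn from the same values that the block fit uses. Hox genes, cofactors, neighbours and marker lists were chosen with earlier results of these data known. Per-array values are given, in each cluster, for the brightest untreated gene and for the largest estimates above and below 0; other lists give up to 2 called genes per direction, or the 2 smallest p-values. Hoxb13, Hoxa13, genes grouped with them, and other genes outside that rule were chosen after their values were seen. Alternatives were other scalings, the block, averaged probe sets, a dim filter, another variance prior, all probe sets, a threshold of 0.01 and leaving out each array.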

Additional observations from a re-analysis of the deposited data

How the results depend on the processing

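No alternative called a Hox gene lower, and the count called higher was 0 in all but the fits with the replicate block. The block, which pairs arrays by number, called 2 (Hoxb13 and Hoxd13), and with cyclic loess, added after the data were seen, 1 (Hoxd13). The median Hox change ran from 0.04 after cyclic loess to 0.10 without the dimmest 40% of genes, a filter that left 4 Hox genes. Without 1 array it ran from 0.06 to 0.09. Among the Hox genes refitted by name, the smallest adjusted p in those 6 fits was 0.0545, for Hoxc8 without untreated replicate 1. Hoxd8 ran from -0.046 to 0.0062 in these fits and changed sign without tamoxifen replicate 3 (adjusted p = 0.972). The count of genes called in the whole table was 3472 with the block, 3380 with the block and cyclic loess, 336 over all probe sets and 276 at a threshold of 0.01. Leaving out 1 array gave 355 to 1580 (516 and 908 without untreated replicates 2 and 3, 355 and 539 without tamoxifen replicates 2 and 3). The cause of these differences was not tested. The Hoxb median was 0.07 after cyclic loess. Of single named genes and cluster medians, 48 values lost and 22 gained a call, 2 moved and 1 reversed, while 527 kept direction and side of the threshold. Dim signals, compressed by RMA, limit what the Hox values can show.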

Other observations

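The probe set listed for both Hoxb7 and Hoxb8, which stayed out of the comparison because it names no single gene, read 5.56, 5.58 and 5.85 in untreated and 5.74, 5.64 and 5.68 in tamoxifen replicates 1 to 3. The groups overlapped, and its change was 0.03 ± 0.09 on the log2 scale (limma adjusted p = 0.918 over all probe sets). The signal lay below 6.39, where 95% of the olfactory receptor genes lay, as most Hox signals did.

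Among the retinoic acid genes, Stra8 and Rdh10 were picked after their values were seen. Stra8, a retinoic acid target of germ cells, read 7.04, 6.97 and 6.89 untreated and 6.87, 6.61 and 6.60 after tamoxifen, a change of -0.27 ± 0.09 (adjusted p = 0.0913, or 0.0205 with the replicate block). Rdh10, which makes the precursor of retinoic acid, had a change of 0.22 ± 0.08 (adjusted p = 0.148, or 0.0477 with the block).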
